A study of Mus musculus with 17 samples.

Results

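The regulators of mitochondrial biogenesis described here are 10 genes, chosen by name: the PGC-1 coactivators Ppargc1a and Ppargc1b, Perm1, the nuclear receptors Esrra, Esrrg, Ppara and Ppard, the transcription factors Nrf1 and Gabpa, and Tfam. They are 10 of the 45777 genes in the count table, and all 10 were among the 16731 genes that passed the filter on low counts. Their transcripts were counted in mRNA libraries of the gastrocnemius, a calf muscle, of 17 male C57BL/6J mice, with 1 library per mouse. The ALL group (n = 4) and the Middle-aged group (n = 6) entered the study at 48 weeks of age and left it at 61 weeks, and the Mature group (n = 7) entered at 8 weeks and left at 21 weeks, with a run-in before 12 weeks of the test diets. Every group ate the AIN-93G diet, and in the ALL group allulose, a low-calorie epimer of fructose, took the place of cellulose at 3%. Ages in the labels read 12 months for both older groups and 8 weeks for Mature mice. Middle-aged against Mature asks what differs with age, and ALL against Middle-aged asks what differs with the sugar at 1 age.

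Mitochondria are built from proteins encoded in the nucleus and in mitochondrial DNA, and the PGC-1 coactivators raise the transcripts of both. PGC-1α is the coactivator that exercise and cold induce. PGC-1α and PGC-1β do not bind DNA themselves. They dock on nuclear receptors of the ERR and PPAR families and on NRF1 and GABP, which sit at the promoters of respiratory chain and fatty acid oxidation genes. One product of that program, TFAM, enters the mitochondrion to package and transcribe mitochondrial DNA. Perm1 is induced in muscle by PGC-1 and ERR and acts on a subset of their targets.

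Promoters are shown for Ppargc1a, Perm1, Esrra and Ppara. Within Mature and within Middle-aged mice, the levels of these 4 genes differed between the sets of libraries described further on. Each of their windows also holds the core of a motif bound by factors within the pathway or upstream of it. Only members with both features are shown, so their going together here is no result. Esrrg differed between the sets in the same way, but its windows held none of the cores searched. The windows are RefSeq sequences on GRCm38.p6, from 250 bases before to 50 bases after an annotated start, written 5′ to 3′ on the strand of the gene. Capitals mark the motif. Windows were found for 9 of the 10 members, 13 in all, and other starts of the same genes are not shown.
Ppargc1a: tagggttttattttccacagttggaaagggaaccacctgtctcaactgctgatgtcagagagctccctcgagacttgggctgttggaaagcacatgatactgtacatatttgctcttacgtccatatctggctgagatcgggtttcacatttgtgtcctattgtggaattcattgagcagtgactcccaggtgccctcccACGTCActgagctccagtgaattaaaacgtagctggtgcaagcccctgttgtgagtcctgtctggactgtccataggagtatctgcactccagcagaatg
Perm1: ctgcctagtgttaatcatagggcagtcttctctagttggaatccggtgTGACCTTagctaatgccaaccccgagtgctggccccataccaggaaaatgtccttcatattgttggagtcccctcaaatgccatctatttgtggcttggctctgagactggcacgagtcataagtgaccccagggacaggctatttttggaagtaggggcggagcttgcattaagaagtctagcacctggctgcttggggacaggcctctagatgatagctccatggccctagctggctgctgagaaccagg
Esrra: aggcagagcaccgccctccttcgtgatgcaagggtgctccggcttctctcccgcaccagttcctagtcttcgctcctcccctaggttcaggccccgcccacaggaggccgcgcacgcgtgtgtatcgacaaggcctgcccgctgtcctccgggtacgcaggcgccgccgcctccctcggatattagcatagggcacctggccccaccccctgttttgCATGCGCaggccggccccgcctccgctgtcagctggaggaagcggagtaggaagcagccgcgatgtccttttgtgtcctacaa
Ppara: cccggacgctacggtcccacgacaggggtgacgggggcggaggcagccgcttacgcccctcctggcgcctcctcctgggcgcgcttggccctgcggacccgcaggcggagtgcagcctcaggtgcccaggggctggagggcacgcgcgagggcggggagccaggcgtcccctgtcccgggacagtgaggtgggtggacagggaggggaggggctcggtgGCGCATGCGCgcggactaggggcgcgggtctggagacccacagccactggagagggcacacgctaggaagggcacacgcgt
The Ppargc1a window lies at chr5:51567676-51567975 on the minus strand, and its capitals are the reverse complement of TGACGT, the core of the cAMP response element, at −50 from the start. The Perm1 window lies at chr4:156215677-156215976 on the plus strand and holds the reverse complement of AAGGTCA, the core of the ERR response element, at −202. The Esrra window lies at chr19:6921759-6922058 on the minus strand and holds the reverse complement of GCGCATG, the core of the NRF1 site, at −33. The Ppara window lies at chr15:85735526-85735825 on the plus strand and holds the NRF1 core at −31 and again on the opposite strand at −28, and these matches overlap.

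Both strands of all 32851 promoter windows of the same length were searched for each core. TGACGT was present in 7.51% of them, AAGGTCA in 4.72%, GCGCATG in 3.91% and CCGGAAG, the core of the GABP/ETS site, in 8.86%. Among the members not printed, the GABP/ETS core was found for Gabpa at −93 on the opposite strand and for Tfam at −47 on the gene strand. The levels of Gabpa and Tfam overlapped between the sets of libraries within Mature and within Middle-aged mice. The windows of Esrrg, Ppard and Nrf1 held none of the 4 cores, which says only that these letters are not in these windows. A match of this kind is a description of the letters and not a site.

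Total counts per library were 64018538 to 70544150 for ALL, 61832304 to 72640511 for Middle-aged and 49774656 to 63970155 for Mature mice. The skeletal muscle markers (6 genes) summed to between 52580 and 74050 CPM in every library, and the liver markers to between 0.596 and 15.3 CPM, with 3 of the 6 liver genes at 0 in all libraries. Libraries differed in the share of counts from the 37 mitochondrially encoded genes, and a line was drawn at 18% after these shares were seen. The share was over 18% in 8 libraries (ALL 1 and 2, Middle-aged 1, 3 and 4, and Mature 1, 2 and 3), at 18.5% to 23.5%, and 15.2% to 17.9% in the other 9. The line falls in no wide gap: the widest lay between 18.5% (ALL 2) and 20.2%, so ALL 2 was nearer to the lower libraries, whereas no Mature or Middle-aged library lay between 17.9% and 20.2%. Each set holds libraries of all 3 groups, and no label names them. They do go with the sample numbers that the titles give besides the replicate number: of the 10 libraries numbered 5 or lower, 8 were over 18% (the exceptions were Mature 4 and Middle-aged 2), and of the 7 with higher numbers 0 were. What those numbers stand for is not given in the sources used here, and their part in the results was not tested. Results are for all libraries unless a set is named. In bulk tissue, fewer cells of a type and less RNA per cell cannot be told apart.

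The members spanned a wide range of level. On the length-corrected TPM scale, Perm1 had the highest median over the 17 mice at 78.8 TPM (range 53.9 to 97.9), followed by Esrra at 58.5 TPM (46.2 to 77.3). These ranges overlapped each other and no other member. Tfam followed at 18.2 TPM (16.3 to 20.6), apart from the members below it. Gabpa had a median of 11.6 TPM, Ppard of 10.3 TPM and Ppargc1a of 9.99 TPM, with overlapping ranges. Esrrg had a median of 6.43 TPM, Nrf1 of 5.48 TPM and Ppara of 4.61 TPM, and each overlapped its neighbours in this order. Ppargc1b was lowest at 1.89 TPM (1.12 to 2.91), overlapping Ppara, and every value of Ppargc1a (7.14 to 13 TPM) was above it. Members also differed in how far mice varied. The highest CPM was 5.8 times the lowest for Ppara, 3.37 times for Esrrg and 2.77 times for Ppargc1b, against 1.29 times for Tfam and 1.4 times for Nrf1.

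**Figure D1:**
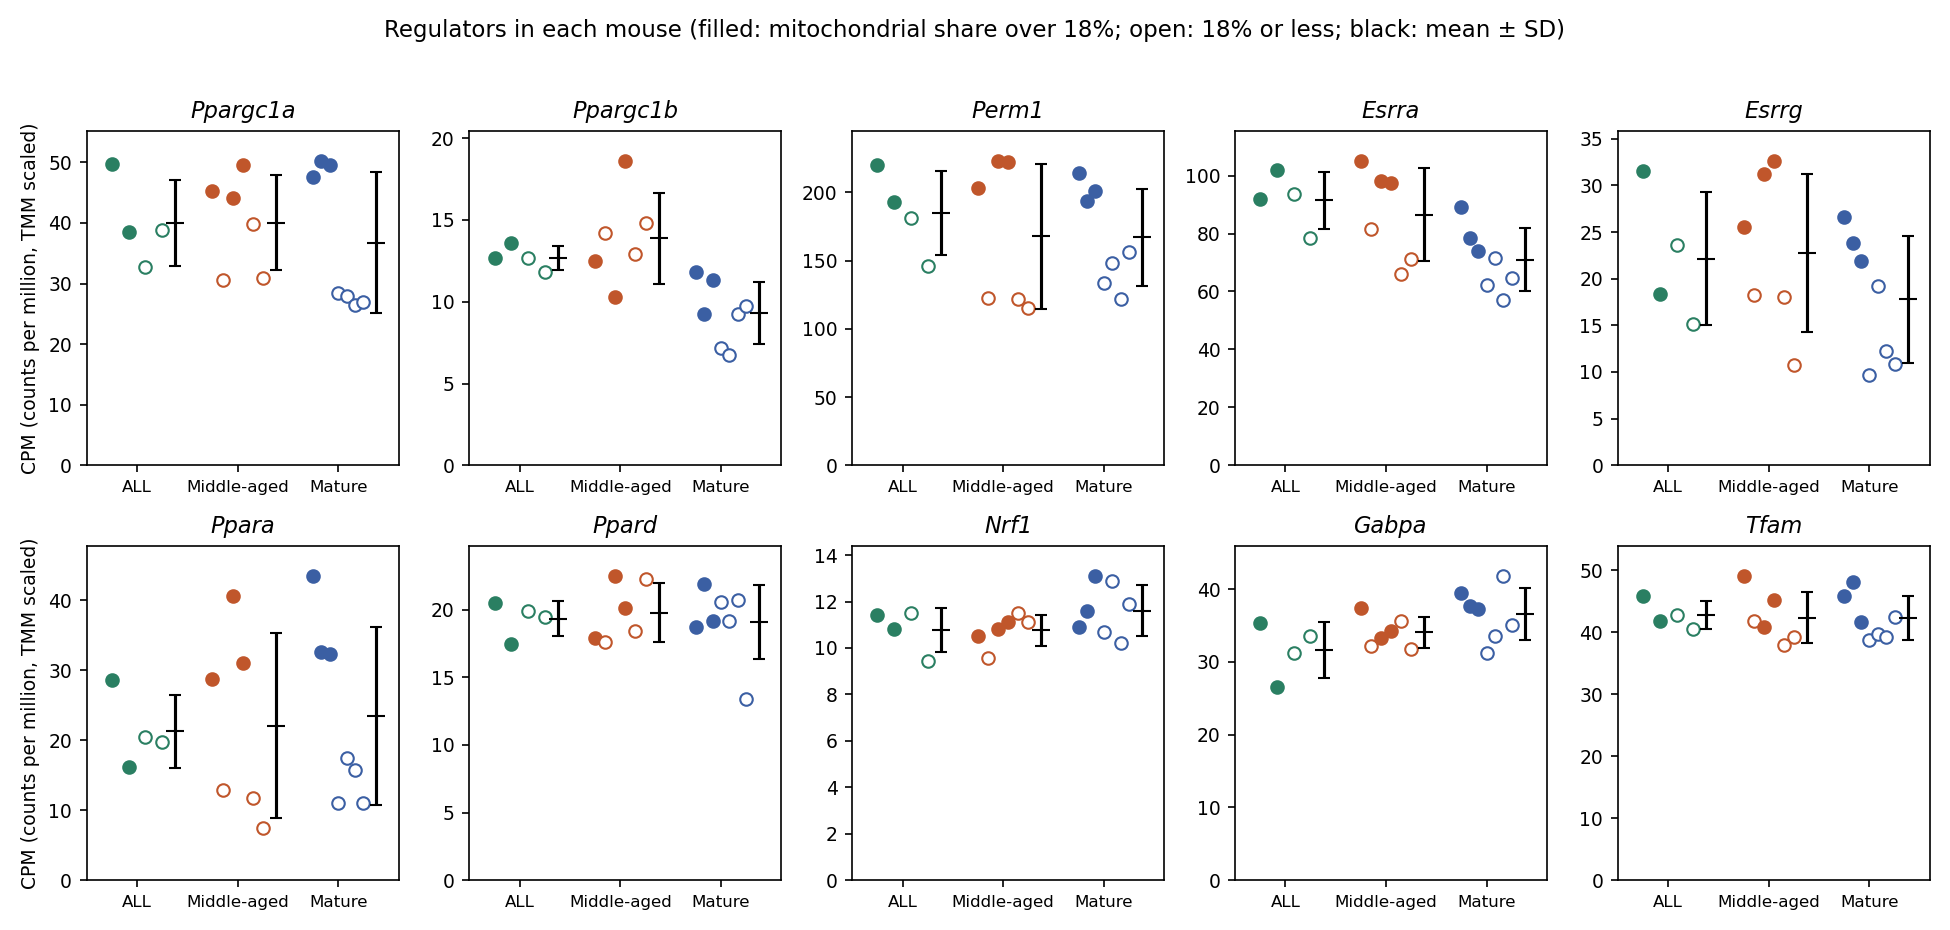
CPM (TMM-scaled counts per 1e6) of the 10 regulators in each mouse of the ALL, Middle-aged and Mature groups, with filled points for libraries with a mitochondrial share over 18% and black bars for the mean ± SD. Ppargc1b lay between 10.3 and 18.6 CPM in Middle-aged mice against 6.73 to 11.8 CPM in Mature mice, and filled points lay above open points within Mature and within Middle-aged mice for Ppargc1a, Perm1, Esrra, Esrrg and Ppara.

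With age, the one regulator called at an FDR under 0.05 was Ppargc1b. It encodes PGC-1β, the coactivator that keeps up basal mitochondrial content in muscle. Middle-aged mice had 10.3 CPM at the lowest, 13.6 at the median and 18.6 at the highest, against 6.73, 9.24 and 11.8 CPM in Mature mice. The 4 ALL mice had 12.7, 13.6, 12.7 and 11.8 CPM. Of the 6 Middle-aged mice, 5 were above every Mature mouse, and Middle-aged 3 fell inside the Mature range. The mean was 13.9 ± 2.79 CPM in Middle-aged mice and 9.32 ± 1.9 CPM in Mature mice (SD, n = 6 and 7), a logFC of 0.58 (SE 0.13, edgeR FDR = 0.0086), or 1.49-fold (95% interval 1.23 to 1.81). Over all genes tested, 10.3% were called at an FDR under 0.05 in this comparison, 4.75% higher and 5.54% lower in Middle-aged mice. With 1 of 10 called, the members were near the background share. Their median logFC was 0.03, against 0.01 over all genes tested.

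The age difference of Ppargc1b was also fitted within each set of libraries. Among libraries with a mitochondrial share of 18% or less, the 3 Middle-aged mice had 14.2, 12.9 and 14.8 CPM and the 4 Mature mice had 7.17, 6.73, 9.24 and 9.75 CPM. These did not overlap, with a logFC of 0.77 (SE 0.13, edgeR FDR = 0.012). Among libraries over 18%, the 3 Middle-aged mice had 12.5, 10.3 and 18.6 CPM and the 3 Mature mice had 11.8, 9.23 and 11.3 CPM. These overlapped, and Ppargc1b was not called, at a logFC of 0.34 with a wider SE (0.19, edgeR FDR = 0.37). The difference between the sets was not tested. Leaving out any 1 of the 17 mice kept the call, at a logFC of 0.47 to 0.64 and an FDR of 0.0047 to 0.024. Markers of other cell types also differed with age: 3 of 4 endothelial and 3 of 4 Schwann cell markers were lower in Middle-aged mice, and their part in the result was not tested. Summed endothelial markers ranged from 106.8 to 140.1 CPM in Middle-aged mice and from 153.6 to 211 CPM in Mature mice. Summed Schwann cell markers ranged from 15.1 to 53.6 CPM in Middle-aged mice and from 38.7 to 217 CPM in Mature mice, and no marker of either list was at 0 in all libraries.

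Ppargc1a, the exercise- and cold-inducible coactivator PGC-1α, had 30.6 CPM at the lowest, 41.9 at the median and 49.5 at the highest in Middle-aged mice, against 26.4, 28.5 and 50.2 CPM in Mature mice. The ranges overlapped. The mean was 40 ± 7.81 CPM in Middle-aged and 36.8 ± 11.6 CPM in Mature mice (SD, n = 6 and 7), with a logFC of 0.12 (95% interval −0.25 to 0.49, edgeR FDR = 0.73). The sets of libraries differed in direction. At a share of 18% or less, Ppargc1a ran from 30.6 to 39.8 CPM in 3 Middle-aged mice and from 26.4 to 28.5 CPM in 4 Mature mice, without overlap (logFC 0.30, SE 0.11, edgeR FDR = 0.16). Over 18%, it ran from 44.1 to 49.5 CPM in 3 Middle-aged and from 47.6 to 50.2 CPM in 3 Mature mice, which overlapped (logFC −0.10, SE 0.098, FDR = 0.63). Neither passed the threshold, and the difference between the sets was not tested. Perm1, the muscle-specific regulator downstream of PGC-1, averaged 168 ± 53.1 CPM in Middle-aged and 167 ± 35.9 CPM in Mature mice. Its logFC was 0.01 (−0.36 to 0.38), an interval of 0.777-fold to 1.3-fold, and the logFC was −0.22 at 18% or less (edgeR FDR = 0.30) and 0.08 over 18% (FDR = 0.67).

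Of the nuclear receptors, Esrra came nearest to the threshold. It encodes ERRα, the main DNA-binding partner of PGC-1α at respiratory genes. Middle-aged mice had 66 CPM at the lowest, 89.4 at the median and 105 at the highest, against 56.9, 71.6 and 89.1 CPM in Mature mice. Of the 6 Middle-aged mice, 3 (1, 3 and 4) were above every Mature mouse, and the other 3 lay within the Mature range. Those above were the Middle-aged libraries with a mitochondrial share over 18%. The logFC was 0.29 (SE 0.12, 95% interval 0.04 to 0.53) with an edgeR FDR of 0.13, and it passed the threshold only when Middle-aged 5 was left out (logFC 0.35, FDR = 0.049). Within the sets, the logFC of Esrra was 0.19 at 18% or less (SE 0.1, edgeR FDR = 0.37) and 0.3 over 18% (SE 0.09, FDR = 0.098). Esrrg, the related receptor ERRγ of oxidative fibres, averaged 22.7 ± 8.49 CPM in Middle-aged and 17.8 ± 6.79 CPM in Mature mice, a logFC of 0.35 whose interval ran from −0.21 to 0.92. Ppara, the fatty acid-sensing receptor PPARα, averaged 22.1 ± 13.3 CPM in Middle-aged and 23.4 ± 12.7 CPM in Mature mice, with the widest interval of the members (logFC −0.09, −0.88 to 0.70, with −0.38 at 18% or less and −0.13 over 18%). Ppard, the PPARδ receptor of muscle fat use, averaged 19.8 ± 2.2 CPM in Middle-aged and 19.1 ± 2.73 CPM in Mature mice (logFC 0.05, −0.15 to 0.25).

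The factors nearest to the respiratory genes had narrow intervals around 0. Nrf1, the nuclear respiratory factor, averaged 10.8 ± 0.668 CPM in Middle-aged and 11.6 ± 1.11 CPM in Mature mice, with a logFC of −0.11 (−0.26 to 0.04). Gabpa, the DNA-binding subunit of GABP, averaged 34.1 ± 2.12 CPM in Middle-aged and 36.6 ± 3.6 CPM in Mature mice, with a logFC of −0.10 (−0.26 to 0.06). Tfam averaged 42.4 ± 4.11 CPM in Middle-aged and 42.2 ± 3.52 CPM in Mature mice, and its interval of 0.91-fold to 1.11-fold was the narrowest of the 10. None of the 3 passed the threshold, and each had groups that overlapped.

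**Figure D2:**
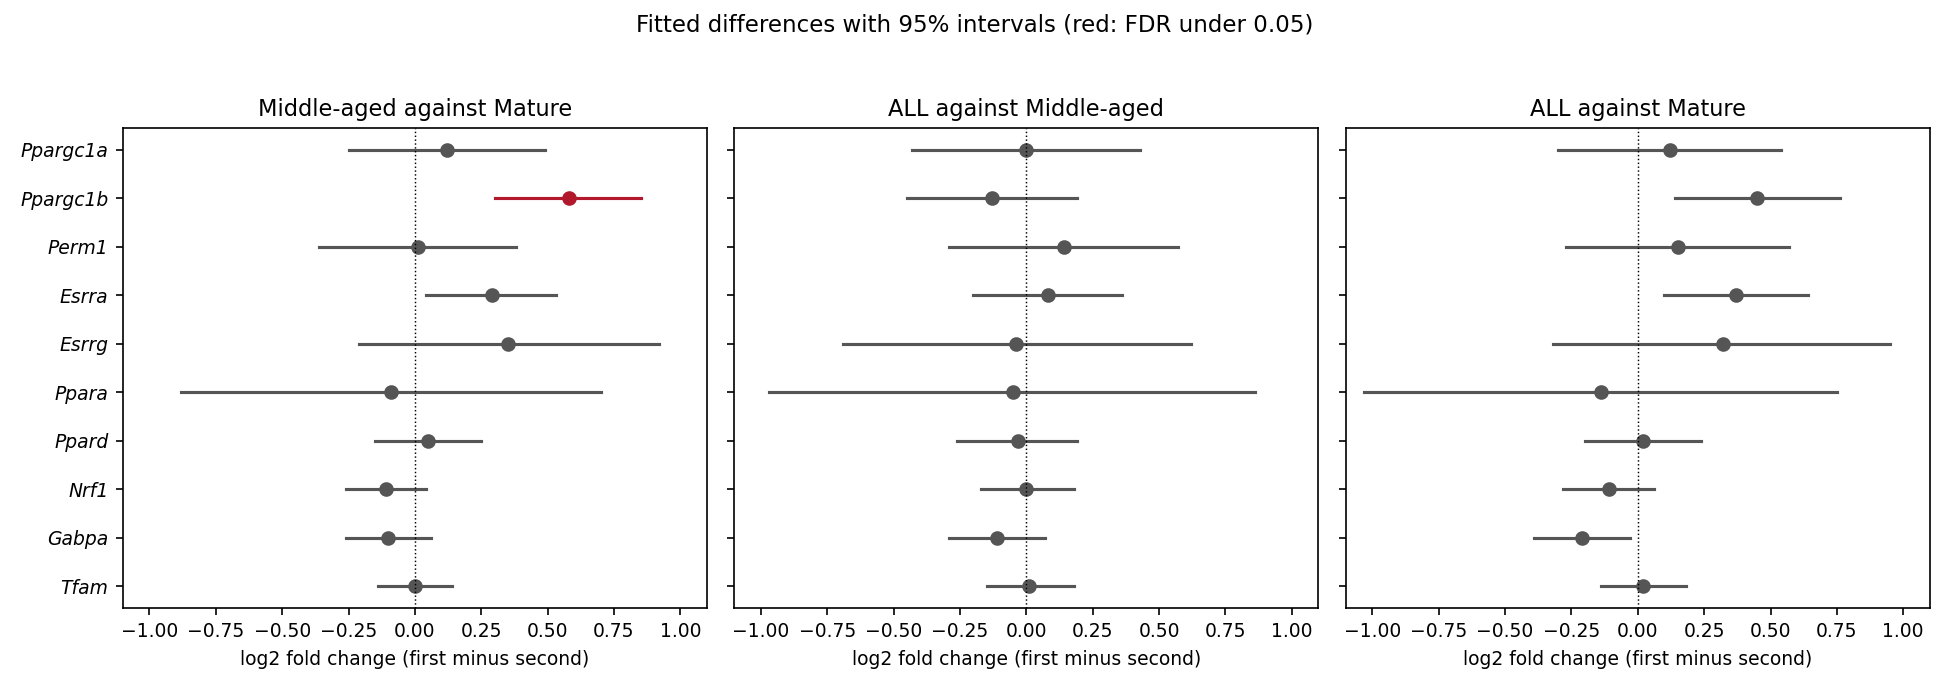
Fitted log2 fold change of each regulator with its 95% interval in the 3 comparisons, where positive values mean higher in the first-named group and red marks an FDR under 0.05. Ppargc1b at 0.58 in Middle-aged against Mature is the only red point, and all 10 intervals in ALL against Middle-aged include 0.

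Allulose feeding was compared with the Middle-aged control at the same age. None of the 10 regulators was called, and 0% of all genes tested passed in this comparison (0 of 16731 by edgeR, 603 at an unadjusted p under 0.05, 5 by DESeq2 and 4 by the likelihood ratio test of edgeR). None of the 10 members was among those 603. Ppargc1a had 49.8, 38.5, 32.8 and 38.8 CPM in the ALL mice, against 30.6 CPM at the lowest, 41.9 at the median and 49.5 at the highest in Middle-aged mice. ALL 1 was just above the Middle-aged range and the other 3 were inside it. The mean was 40 CPM in both groups, with a logFC interval of −0.43 to 0.43. The 4 ALL values of Ppargc1b, given above, all lay within the Middle-aged range, with a mean of 12.7 ± 0.711 CPM against 13.9 ± 2.79 CPM in Middle-aged mice and a logFC of −0.13 (−0.45 to 0.19, edgeR FDR = 1).

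Perm1 had 220, 193, 181 and 146 CPM in ALL mice, against 115, 163 and 223 CPM as the lowest, median and highest in Middle-aged mice, and the logFC was 0.14 (−0.29 to 0.57). It was 0.44 at a share of 18% or less (2 ALL mice against 3 Middle-aged, edgeR FDR = 0.36) and −0.06 over 18% (2 against 3, FDR = 0.94). Esrra had 91.9, 102, 93.7 and 78.4 CPM in ALL mice, all within the Middle-aged range of 66 to 105 CPM (logFC 0.08, −0.20 to 0.36). Esrrg averaged 22.1 ± 7.17 CPM in ALL and 22.7 ± 8.49 CPM in Middle-aged mice, and Ppara 21.3 ± 5.25 CPM in ALL and 22.1 ± 13.3 CPM in Middle-aged mice. The interval of the Ppara logFC ran from −0.97 to 0.86, and its sign differed between the sets of libraries. At 18% or less, Ppara had 20.5 and 19.8 CPM in 2 ALL mice, against 12.9, 11.7 and 7.5 CPM in 3 Middle-aged mice, without overlap (logFC 0.92, SE 0.24, edgeR FDR = 0.33). Over 18%, it had 28.6 and 16.2 CPM in 2 ALL mice, against 28.8, 40.7 and 31.1 CPM in 3 Middle-aged mice (logFC −0.57, SE 0.24, edgeR FDR = 0.72). Both ALL mice were the lower, ALL 1 only just. Neither set passed the threshold after adjustment, and the difference between the sets was not tested. The 16.2 CPM was that of ALL 2, whose share of 18.5% lay just past the line. With the mitochondrial share as a covariate, the Ppara logFC was 0.23 (SE 0.25) over all libraries. The intervals were tighter for Ppard (−0.26 to 0.19), Nrf1 (−0.17 to 0.18), Gabpa (−0.29 to 0.07) and Tfam (−0.15 to 0.18). The median logFC of the members was −0.02.

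ALL against Mature shares the Mature mice with the age comparison and the ALL mice with the diet comparison, so it adds no independent evidence to either. No member was called, against 6.5% of all genes tested (3.32% higher and 3.18% lower in ALL mice). Ppargc1b averaged 12.7 ± 0.711 CPM in ALL and 9.32 ± 1.9 CPM in Mature mice. All 4 ALL mice were above every Mature mouse, though the lowest ALL and the highest Mature value both rounded to 11.8 CPM. The logFC of Ppargc1b was 0.45 (0.14 to 0.76) at an edgeR FDR of 0.076. That FDR fell under the threshold with DESeq2 (0.039), with the likelihood ratio test (0.048) and without Mature 1 (0.045). Esrra averaged 91.6 ± 9.93 CPM in ALL and 71 ± 10.9 CPM in Mature mice, a logFC of 0.37 (0.10 to 0.64) at an FDR of 0.093. It fell under the threshold without Mature 1 (0.049) and with the mitochondrial share as a covariate (0.026). Gabpa averaged 31.6 ± 3.81 CPM in ALL and 36.6 ± 3.6 CPM in Mature mice, a logFC of −0.21 (−0.39 to −0.03) at an FDR of 0.14.

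**Figure D3:**
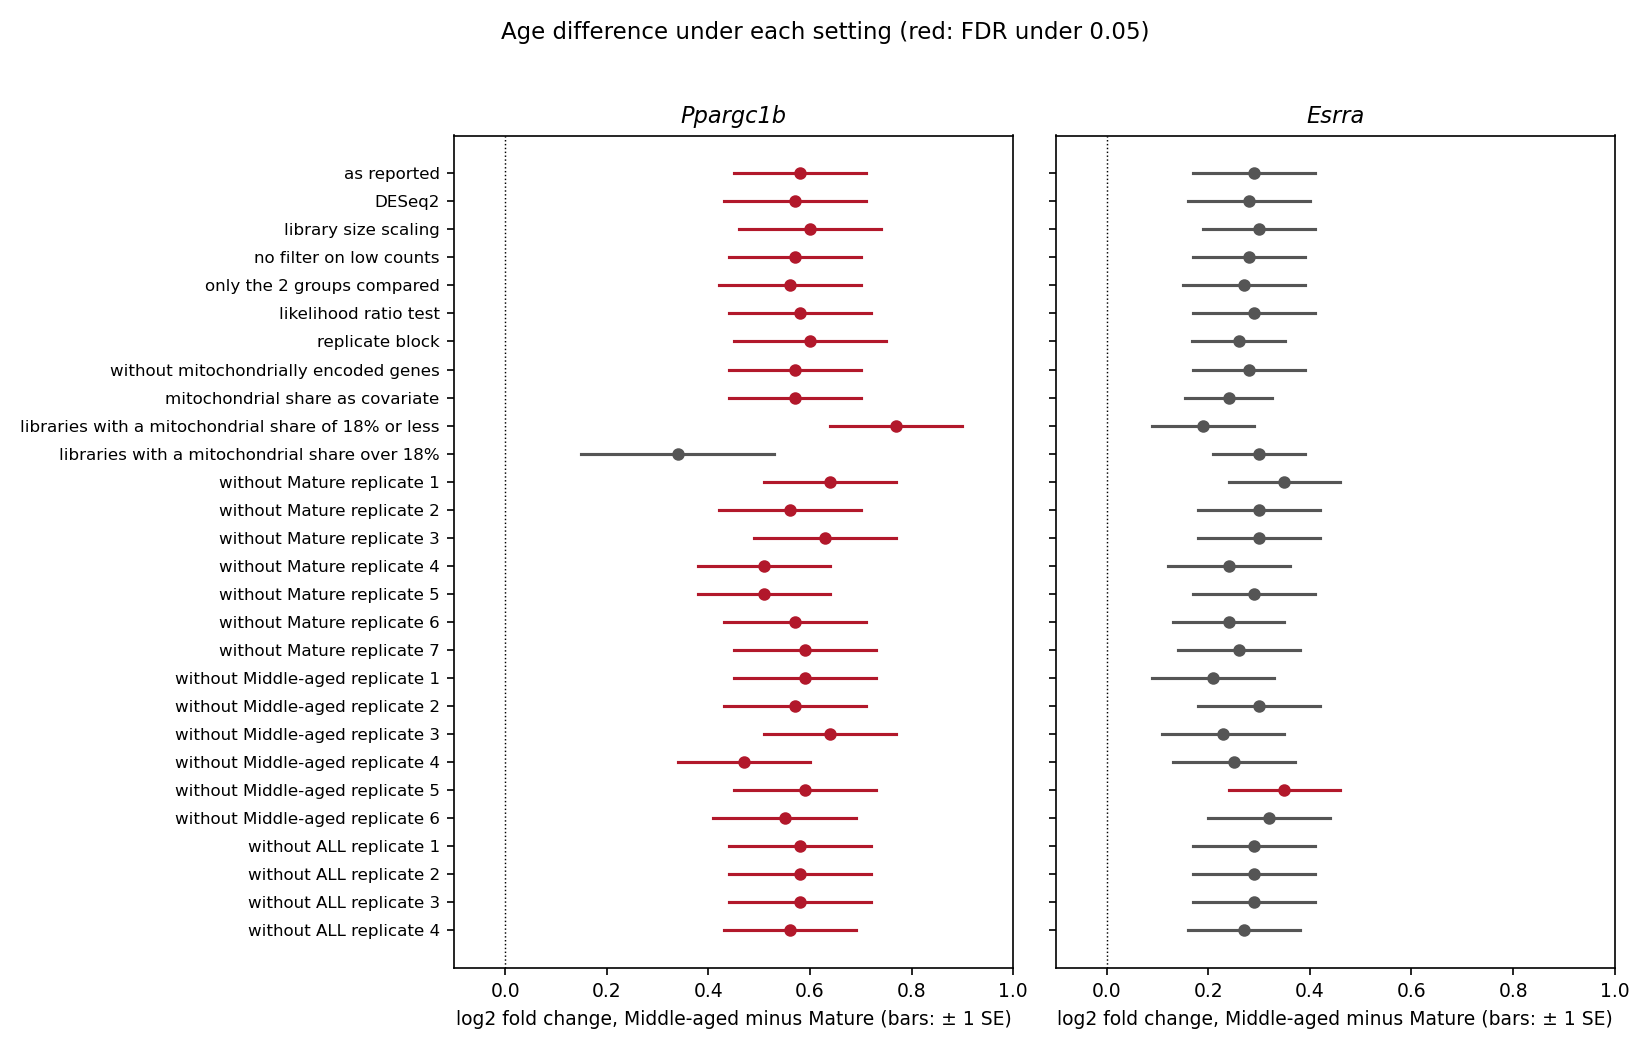
Log2 fold change of Ppargc1b and Esrra in Middle-aged against Mature mice under each setting, with bars of 1 SE and red for an FDR under 0.05. Ppargc1b runs from 0.34 to 0.77 and is red in every row except the libraries with a share over 18%, whereas Esrra runs from 0.19 to 0.35 and is red only without Middle-aged 5.

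Within Mature and within Middle-aged mice, several regulators were higher in the libraries with a mitochondrial share over 18%. Ppargc1a had 47.6, 50.2 and 49.6 CPM in the 3 Mature libraries with a share over 18%, against 28.5, 27.9, 26.4 and 27 CPM in the 4 others. In Middle-aged mice it had 45.2, 44.1 and 49.5 CPM in the 3 libraries over 18%, against 30.6, 39.8 and 30.9 CPM in the rest. The sets did not overlap within either group. In ALL mice the 2 libraries over 18% had 49.8 and 38.5 CPM and the others 32.8 and 38.8 CPM, which overlapped. The sets were drawn from these libraries, so these values are given as a description with no test.

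Perm1 was the only member whose values did not overlap between the sets. It had 193 to 223 CPM in the 8 libraries over 18% and 115 to 181 CPM in the 9 others, with no overlap over all 17 libraries. Ppara had the largest ratio between the medians, at 2.47 (31.8 CPM over 18%, 12.9 CPM at 18% or less), followed by Esrrg at 1.73, Ppargc1a at 1.59, Perm1 at 1.56 and Esrra at 1.33. In Mature mice Ppara had 43.5, 32.7 and 32.4 CPM in the libraries over 18% and 11, 17.5, 15.8 and 11.1 CPM in the others. Esrrg had 26.6, 23.8 and 21.9 CPM in the Mature libraries over 18% and 9.68, 19.2, 12.3 and 10.9 CPM in the others. These 5 members were higher without overlap both within Mature and within Middle-aged mice, against 3.12% of genes (521 of 16696, the mitochondrially encoded genes left out; 8.79% within Mature alone and 10.7% within Middle-aged alone). In ALL mice, with 2 libraries in each set, Perm1 did not overlap between the sets, and Ppargc1a, Esrra, Esrrg and Ppara did. The ratio of medians was 1.14 for Tfam, 1.08 for Gabpa, 1.03 for Ppargc1b, 1.01 for Ppard and 0.986 for Nrf1, and each of these 5 overlapped within both groups. For Ppargc1b that ratio pools the groups. In Middle-aged mice its median was 12.5 CPM over 18% and 14.2 CPM at 18% or less, but the means were 13.8 and 14 CPM. In Mature mice its median was 11.3 CPM over 18% and 8.2 CPM at 18% or less, with means of 10.8 and 8.22 CPM. Whether the groups differed in this was not tested.

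**Figure D4:**
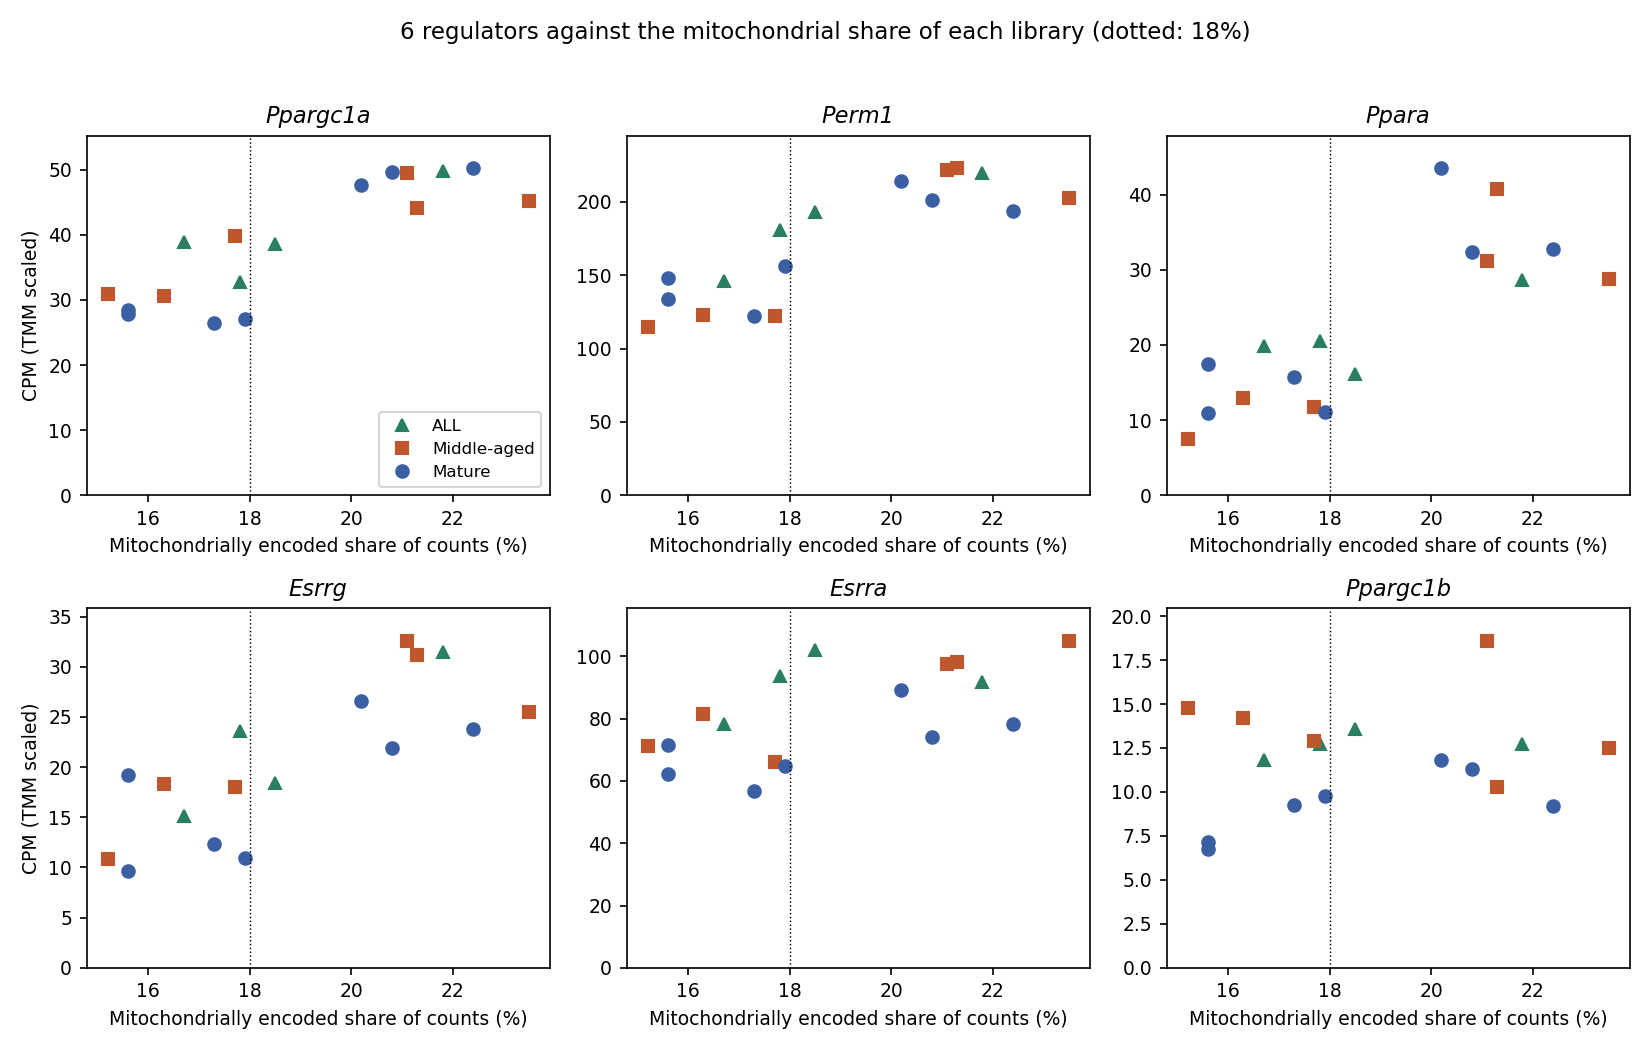
CPM of 6 regulators (vertical axes) against the share of counts from mitochondrially encoded genes in each library in percent (horizontal axes), with 1 point per mouse, triangles for ALL, squares for Middle-aged and circles for Mature, and a dotted line at 18%. Perm1 lies at 193 CPM or more right of the line and at 181 CPM or less left of it, whereas Ppargc1b has medians of 12.2 and 11.8 CPM on the 2 sides.

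Markers of fibre type moved with the sets as well. Each of the 8 slow, oxidative fibre markers had a higher median over 18%, such as Myh7, the slow myosin heavy chain (117 CPM over 18%, 58.4 CPM at 18% or less), and the troponin subunit Tnnt1 (41.3 and 19.8 CPM). The 8 slow fibre markers summed to 410.2 to 1070 CPM (median 685.1) in libraries over 18% and to 156.5 to 2853 CPM (median 357.2) in the others, and none was at 0. The highest sums, 2853 CPM in Mature 5 and 1468 CPM in ALL 3, both came from libraries at 18% or less. Within Middle-aged mice the sums did not overlap between the sets, at 530.2 to 1070 CPM over 18% and 156.5 to 401.9 CPM at 18% or less. By group the sums ran from 357.2 to 1468 CPM in ALL, from 156.5 to 1070 CPM in Middle-aged and from 180.5 to 2853 CPM in Mature mice. The 8 fast fibre markers summed to 105100 to 119700 CPM over 18% and to 99080 to 136000 CPM at 18% or less. Medians over 18% were lower for 6 of these 8, Myh4 of the fastest fibres among them (46800 CPM over 18%, 56400 CPM at 18% or less), and higher for the other 2, Myh2 (2270 and 1210 CPM) and Myh1 (4040 and 3000 CPM), the myosins of type IIa and type IIx fibres. All 6 adipocyte, all 4 Schwann cell and all 4 blood markers had lower medians over 18%, and all 4 macrophage markers had higher ones. Of the 4 endothelial markers, 3 were lower and 1 was higher. The adipocyte markers summed to a median of 8.793 CPM over 18% and 33.75 CPM at 18% or less, and the Schwann cell markers to 37.02 and 62.02 CPM, with ranges that overlapped. The part of fibre type and of these cells in the levels of the regulators was not tested.

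Target genes of these regulators were read out of the same fit. Among 26 PPAR target genes of fatty acid use, all 26 had a higher median in libraries over 18% and 15 were without overlap within both Mature and Middle-aged mice. Of all genes tested, those encoded in mitochondria left out, 49.5% had a higher median there and 3.12% were higher without overlap in both groups. Among 32 ERR and NRF1/GABP target genes of respiration, 31 had a higher median and 18 were without overlap. Examples, chosen after their values were seen, were Fabp3 (heart-type fatty acid binding protein, 698 CPM over 18% and 358 CPM at 18% or less, medians), Lpl (lipoprotein lipase, 834 and 495 CPM, likewise), Mb (myoglobin, 2560 and 1430 CPM) and Fndc5 (precursor of irisin, 66.9 and 33.9 CPM). Other lists had fewer genes without overlap, against the same 3.12%: 3 of 26 for mitochondrial DNA transcription and maintenance, 2 of 15 for mitochondrial dynamics and mitophagy, 1 of 24 for partners and co-regulators and 0 of 29 for upstream regulators. The 1 partner was Esrrb, which encodes the third ERR receptor, at 7.53 CPM over 18% and 3.6 CPM at 18% or less (medians).

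With age, 4.75% of all genes tested rose and 5.54% fell. Of the 32 ERR and NRF1/GABP targets, 1 rose and 0 fell, 3.12% of the list against 10.3% of all genes called, and 0 were called within either set of libraries. It was Tomm20, an import receptor of the outer mitochondrial membrane, at 87.4 ± 6.91 CPM in Middle-aged and 77 ± 3.76 CPM in Mature mice (logFC 0.18, SE 0.054, edgeR FDR = 0.036). This count was 0 without any one of Mature 1, 2, 3, 4 or 6, Middle-aged 1 to 5 or ALL 4, and 2 without Middle-aged 6. Of the 26 PPAR targets, 0 rose and 3 fell, 11.5% of the list and near the 10.3% over all genes. Within libraries at 18% or less 1 fell, and over 18% 0 were called, against 3.22% and 4.26% of all genes called in those sets. Among them were the acyl-CoA thioesterases Acot1 (5.57 ± 2.27 CPM in Middle-aged, 11.7 ± 4.13 CPM in Mature mice, logFC −1.08, edgeR FDR = 0.036) and Acot2 (35.3 ± 9.23 CPM in Middle-aged, 57.3 ± 15.1 CPM in Mature mice, logFC −0.70, FDR = 0.047). Acot1 and Acot2 are near-identical copies whose reads the counting may have split, so their separate values are uncertain. This count was 0 without any one of Mature 3, 5 or 6 or Middle-aged 2, 3 or 6, and 1 without Mature 2, ALL 3 or ALL 4. Median logFC was 0.01 for the ERR and NRF1/GABP list and −0.08 for the PPAR list, against 0.01 over all genes tested.

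The genes that feed into PGC-1 were called as follows with age: 6 of 29 upstream regulators rose and 2 fell, 27.6% of the list against 10.3% of all genes. Within libraries at 18% or less 4 rose and 0 fell, and over 18% 4 rose and 1 fell. Of all genes, 1.44% rose and 1.78% fell in the first set, and 1.38% rose and 2.88% fell in the second. Camk2b, a calcium/calmodulin-dependent kinase subunit, had 169 CPM at the lowest, 200 at the median and 222 at the highest in Middle-aged mice, against 124, 128 and 137 CPM in Mature mice, with no overlap (logFC 0.59, SE 0.064, edgeR FDR = 1.2e-05). Mef2c, a myocyte enhancer factor that binds the Ppargc1a promoter, averaged 728 ± 83 CPM in Middle-aged and 537 ± 26.2 CPM in Mature mice (logFC 0.44, FDR = 0.00072). Nos3, the endothelial nitric oxide synthase, averaged 7.19 ± 1.06 CPM in Middle-aged and 10.8 ± 1.19 CPM in Mature mice (logFC −0.59, FDR = 0.00069), alongside the lower summed endothelial markers given above. Their part in the Nos3 value was not tested. The median logFC of the list was 0.03.

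Among 24 partners and co-regulators, 0 rose and 2 fell, 8.33% of the list and close to the 10.3% over all genes, and 0 were called within either set of libraries. They were Med1, a Mediator subunit that PGC-1α contacts (23.7 ± 1.74 CPM in Middle-aged, 27.8 ± 1.97 CPM in Mature mice, logFC −0.23, edgeR FDR = 0.019), and Lpin1, the phosphatidate phosphatase lipin 1 that also coactivates with PGC-1α (329 ± 67.7 CPM in Middle-aged, 465 ± 92 CPM in Mature mice, logFC −0.50, FDR = 0.048). The count was 1 without any one of Mature 3, 5 or 6, Middle-aged 1 or 2, or ALL 3. Of 26 genes of mitochondrial DNA transcription and maintenance, 1 rose and 2 fell, 11.5% of the list and again near 10.3%, with 0 called within libraries at 18% or less and 1, which fell, over 18%. Rrm2b, a ribonucleotide reductase subunit that supplies nucleotides outside S phase, averaged 39.6 ± 3.32 CPM in Middle-aged and 31.9 ± 4.02 CPM in Mature mice (logFC 0.31, FDR = 0.026). Lig3, the DNA ligase of mitochondria, averaged 27.9 ± 2.62 CPM in Middle-aged and 35.1 ± 1.56 CPM in Mature mice (logFC −0.33, FDR = 0.0012). Polg, the catalytic subunit of the mitochondrial DNA polymerase, averaged 30.2 ± 1.58 CPM in Middle-aged and 34.1 ± 2.4 CPM in Mature mice (logFC −0.18, FDR = 0.048). That count was 1 without Mature 5, Middle-aged 1 or Middle-aged 6. Of 15 genes of mitochondrial dynamics and mitophagy, 1 rose (6.67% against 10.3%, and 0 within either set): Fundc1, a mitophagy receptor, at 26.2 ± 2.7 CPM in Middle-aged and 20.3 ± 1.3 CPM in Mature mice (logFC 0.37, FDR = 0.0016). This last count was 2 without Mature 5 or without Middle-aged 5. In ALL against Middle-aged, no gene on any of the 6 lists was called, in a comparison with 0 calls over all genes by edgeR.

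The genes whose pattern was most like that of Ppargc1b over the 17 libraries, among 12401 tested genes of a logCPM over 0, were Slc25a37, the mitochondrial iron importer mitoferrin-1 (Pearson r 0.88, Spearman rho 0.88), Prdm9, a histone methyltransferase best known from meiosis (0.87 and 0.87), and Rbl1, a relative of the retinoblastoma protein (0.86 and 0.85). Group means were kept in, so these values hold the age difference as well as the spread among mice of 1 group. Slc25a37 averaged 26.2 CPM in ALL, 26.3 CPM in Middle-aged and 21 CPM in Mature mice.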

How the data were processed

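Libraries were made from gastrocnemius mRNA of individual mice with a stranded kit and sequenced as read pairs. The deposited values used for the tests are counts per gene, made by the authors and not normalized. The methods of the study list STAR and StringTie, whereas the submitters' processing notes list HISAT2 2.1.0, featureCounts and mm10, so the counting program is not settled, nor is its use of strand. TPM values, which the authors scaled for gene length and depth, were used only to order the levels of genes. Another 18 columns of values per sample, from mice outside the 17, and 17 FPKM columns were not used.

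Counts were filtered (filterByExpr, minimum count 10), TMM scaled and tested with the quasi-likelihood F test of edgeR 4.0.16 in R 4.3.3, with the 3 groups in 1 fit and Benjamini-Hochberg adjustment (FDR) over 16731 genes. A call is an FDR under 0.05. CPM is TMM-scaled counts per 1e6, and logFC is a log2 fold change. Replicates are separate mice. Over the 42 pairs of replicates the chi-square per gene was at least 18.8, far above sampling noise. Alternatives were DESeq2 1.42.0, other scaling, filters and tests, a replicate block, the mitochondrial share as a covariate, each share set and each mouse left out. The statistics were tested on simulated data. Figures used matplotlib 3.10.9.

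The members, lists and rules were chosen with earlier results of these data known. Besides the members, the text names in each list up to 4 called genes with the smallest p, and the 3 genes most like a called member. Some genes that this rule names are not reported here. RefSeq promoters are on GRCm38.p6.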

Additional observations from a re-analysis of the deposited data

Results flagged for a closer look

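In 30 checks of a member within a group, 1 mouse stood apart from the rest of its group. Ppard was at 13.4 CPM in Mature 7, against 18.7 CPM in the next lowest and 21.9 CPM in the highest Mature mouse, a gap of 0.629 of the whole range. Chance marks about 1 in 20 such groups. Mature 7 was also the library with the fewest counts, 49774656, and the part of depth in this value was not tested.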

How the results depend on the processing

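Of 27 alternatives, 26 kept the Ppargc1b call in Middle-aged against Mature, and the exception was the libraries with a mitochondrial share over 18%. Leaving out a mouse, scaling by library size or adding the replicate block did not remove it. Every member had at least 430 counts in every library, the lowest being Ppargc1b in Mature 5, and the intervals rest on the spread among 4 to 7 mice per group. Scaling moved the median logFC of all genes by less than 0.1.

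Replicate numbers were not used to pair mice, because the labels tie them to no shared animal or batch and same-numbered pairs did not all correlate. The 14 such pairs had correlations of −0.26 to 0.4 (median 0.12), and 80 other pairs had a median of −0.022. A library correlated best with its own number in 10 of 28 checks. The count that chance would give was not worked out, so these checks do not show the numbers to be free of shared structure. With the replicate block, Ppargc1b had a logFC of 0.60 in Middle-aged against Mature (edgeR FDR = 0.028).

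Counts of calls that moved by over 1.5 times follow, against 1721 genes and 1 member in Middle-aged against Mature, 0 of each in ALL against Middle-aged, 1087 genes and 0 members in ALL against Mature, and 8 upstream, 2 partner, 3 mitochondrial DNA, 3 PPAR, 1 ERR and NRF1/GABP and 1 dynamics gene. With DESeq2, the calls were 5 genes in ALL against Middle-aged, 1699 genes in ALL against Mature, 1 member in ALL against Mature and 4 partner and 3 dynamics genes in Middle-aged against Mature. With scaling by library size alone, the calls were 0 ERR and NRF1/GABP and 2 dynamics genes in Middle-aged against Mature. With no filter on low counts, the calls were 1 partner, 0 PPAR and 0 ERR and NRF1/GABP genes in Middle-aged against Mature. In fits of only the 2 groups compared, the calls were 0 ERR and NRF1/GABP genes in Middle-aged against Mature. With the likelihood ratio test, the calls were 4 genes in ALL against Middle-aged, 1 member in ALL against Mature and 0 ERR and NRF1/GABP genes in Middle-aged against Mature. With the replicate block, the calls were 615 genes in ALL against Mature and 4 partner genes in Middle-aged against Mature. With the mitochondrial share as covariate, the calls were 1 member in ALL against Mature and 4 partner and 5 PPAR genes in Middle-aged against Mature. Within libraries at 18% or less, the calls were 549 genes in Middle-aged against Mature, 153 genes in ALL against Mature and 4 upstream, 0 partner, 0 mitochondrial DNA, 1 PPAR, 0 ERR and NRF1/GABP and 0 dynamics genes in Middle-aged against Mature. Within libraries over 18%, the calls were 716 genes in Middle-aged against Mature, 0 members in Middle-aged against Mature, 1 gene in ALL against Middle-aged, 167 genes in ALL against Mature and 5 upstream, 0 partner, 1 mitochondrial DNA, 0 PPAR, 0 ERR and NRF1/GABP and 0 dynamics genes in Middle-aged against Mature. The cause of these moves was not tested, and the fits within each set of libraries also held fewer mice.

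Sign changes touched only members that were not called in that comparison. In Middle-aged against Mature the logFC changed sign for Perm1 (−0.0034) and Tfam (−0.008) in fits of only the 2 groups compared, Perm1 (−0.02) and Ppard (−0.02) with the replicate block, Tfam (−0.00018) without the mitochondrially encoded genes, Perm1 (−0.09) and Tfam (−0.01) with the mitochondrial share as covariate, Perm1 (−0.22) and Tfam (−0.01) within libraries at 18% or less, Ppargc1a (−0.1) and Tfam (−0.02) within libraries over 18%. In ALL against Middle-aged the logFC changed sign for Ppargc1a (0.00046) with DESeq2, Nrf1 (−0.03) and Tfam (−0.02) with scaling by library size alone, Ppargc1a (0.0018) in fits of only the 2 groups compared, Perm1 (−0.02), Esrra (−0.02) and Tfam (−0.04) with the replicate block, Ppargc1a (0.0058) without the mitochondrially encoded genes, Ppargc1a (0.04), Esrrg (0.04) and Ppara (0.23) with the mitochondrial share as covariate, Ppargc1a (0.08), Esrrg (0.3), Ppara (0.92), Ppard (0.02) and Nrf1 (−0.04) within libraries at 18% or less, Perm1 (−0.06), Esrra (−0.03) and Tfam (−0.03) within libraries over 18%. In ALL against Mature the logFC changed sign for Ppargc1a (−0.07), Perm1 (−0.04), Ppard (−0.05) and Tfam (−0.03) with the replicate block, Ppara (0.54) within libraries at 18% or less, Ppargc1a (−0.16), Ppard (−0.07) and Tfam (−0.05) within libraries over 18%.

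With each mouse left out in turn, calls ranged over 1310 to 1816 genes and 1 to 2 members in Middle-aged against Mature, 0 to 1 genes and 0 to 0 members in ALL against Middle-aged and 430 to 1096 genes and 0 to 2 members in ALL against Mature, and over 7 to 8 upstream, 1 to 3 partner, 1 to 3 mitochondrial DNA, 0 to 4 PPAR, 0 to 2 ERR and NRF1/GABP and 1 to 2 dynamics genes in Middle-aged against Mature. The 430 genes in ALL against Mature were those without ALL 3, with 650 without ALL 4 and 707 without Mature 6. Values of logFC that changed sign ranged from −0.37 to 0.13 for Ppara, −0.1 to 0.09 for Perm1, −0.05 to 0.03 for Tfam and −0.02 to 0.08 for Ppard in Middle-aged against Mature, −0.13 to 0.08 for Ppargc1a, −0.26 to 0.11 for Esrrg, −0.23 to 0.22 for Ppara, −0.03 to 0.07 for Nrf1, −0.07 to 0.01 for Ppard and −0.02 to 0.06 for Tfam in ALL against Middle-aged, −0.32 to 0.08 for Ppara, −0.02 to 0.04 for Tfam, −0.05 to 0.06 for Ppard and −0.0032 to 0.21 for Ppargc1a in ALL against Mature.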

Other observations

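Whether pairs of regulators varied together among mice of 1 group was examined within each set of libraries, after the group means were removed. In both sets 45 pairs were examined, and 0 passed an adjusted p under 0.05 by exact permutation within groups (two-sided, Benjamini-Hochberg over the 45 pairs of a set). The smallest p these permutations can give was 0.0035 in the 9 libraries at 18% or less and 0.014 in the 8 libraries over 18%. A single pair could so reach an adjusted p of 0.16 at best in the 9 libraries and 0.62 in the 8, so this design could not pass a lone pair, and the count of 0 says nothing of whether pairs vary together. Esrrg and Ppara had a Pearson r of 0.85 in the 9 libraries at 18% or less (exact permutation p = 0.0035, adjusted p = 0.16) and a Spearman rho of 0.87 (exact permutation p = 0.0035, adjusted p = 0.16), and r was 0.71 without the 2 mice farthest from the median of Esrrg. In the 8 libraries over 18% the same pair had an r of 0.88 (exact permutation p = 0.097) and a rho of 0.93 (exact permutation p = 0.056). Some other pairs had an r below 0. Ppargc1a and Esrra had an r of −0.56 in the 9 libraries (exact permutation p = 0.28, adjusted p = 0.9). In the 8 libraries their r was −0.61 (exact permutation p = 0.17, adjusted p = 0.99). Without the 2 mice farthest from the median of Ppargc1a, r was −0.18 in the 9 libraries and −0.48 in the 8. Of the 45 pairs, 23 had an r above 0 in the 9 libraries and 30 in the 8.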
